A study of Arabidopsis thaliana with 3 samples.

Results

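LHW, PHV and OPS are regulators of vascular and phloem patterning, and all 3 gave signal in sorted cells of the Arabidopsis root quiescent center (QC), the rarely dividing cells that the initials of the root tissues surround. On the arrays, LHW lay among the brighter genes, OPS in the upper middle and PHV just above the array median. Each gene was represented by 1 probe set, a group of short probes for 1 transcript, so the set comprised 3 of 22810 probe sets and 3 of 13356 genes named on their own by a probe set. The 3 genes were selected on their signal over background in these same arrays, in an earlier reading of the data. Their signal and their distance from background are therefore given as a description, with no test.

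The samples were protoplasts (cells freed of their walls by enzymes) from roots of Col-0 plants carrying WOX5:GFP, taken at 5 days after stratification. The WOX5 promoter is active in the QC, and GFP-positive protoplasts were sorted by FACS. RNA of 3 such samples was amplified and hybridised to 1 Affymetrix ATH1 array each, giving QC replicates 1 to 3. All samples carry the same transgene and come from the same strain, and with no sample of another cell type, a level in the QC cannot be set against a level in the vascular cylinder. Nothing in the labels says whether the replicates were separate batches of plants, so the spread between them may be technical. WOX5 itself was not analysed here.

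In the root, the vascular cylinder holds xylem, phloem and the procambial cells between them, and its initials lie directly above the QC. LHW (LONESOME HIGHWAY) is a basic helix-loop-helix transcription factor. It pairs with TMO5 to promote the oriented divisions that widen the vascular cylinder, acting through genes of cytokinin synthesis. PHV (PHAVOLUTA, also ATHB9) is a class III homeodomain leucine zipper factor that acts in xylem patterning and organ polarity, and its transcript is cut under the guidance of the microRNAs miR165 and miR166. OPS (OCTOPUS) is a membrane-associated protein, placed at 1 end of the cell in the protophloem, that promotes protophloem differentiation and interferes with the brassinosteroid kinase BIN2.

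The values are MAS5 signals, which are linear, have no physical unit and had been scaled by the authors so that each array has the same trimmed mean. LHW gave signals of 412, 391 and 586 in replicates 1 to 3. Replicates 1 and 2 lay close together, and replicate 3 was 1.46 times their mean. Relative to the median of all probe sets on the same array, LHW was 5.36, 4.80 and 7.21 times as bright in replicates 1 to 3. It was brighter than 81.1%, 80.5% and 86.2% of the probe sets that measure plant transcripts, so it stood well into the upper range on all arrays.

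OPS gave signals of 148, 162 and 168 in the same order. The arrays were close to each other, with a mean of 159 ± 10.3 (SD, n = 3) and a coefficient of variation of 6.50%. OPS was 1.92, 1.99 and 2.06 times as bright as the array median and brighter than 62.3%, 64.0% and 64.2% of the probe sets.

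PHV gave signals of 97.5, 98.9 and 90.5. These were the closest arrays for any of the 3 genes, with a mean of 95.6 ± 4.49 (SD, n = 3) and a coefficient of variation of 4.69%, against 23.2% for LHW (463 ± 107). PHV lay at only 1.27, 1.21 and 1.11 times the array median and was brighter than 54.5%, 53.8% and 52.0% of the probe sets.

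On every array the order of signal was LHW, OPS, PHV. The signal of LHW was 2.79, 2.41 and 3.49 times that of OPS in replicates 1 to 3, and that of PHV was 0.660, 0.611 and 0.540 times that of OPS. The lowest value of each gene lay above the highest value of the next, so the signals did not overlap between arrays. How well a probe set binds its target also sets its signal, so this is an order of signals and not of transcript amounts. Protoplasts were measured in bulk, and fewer cells with a transcript cannot be told apart from less of it in each cell.

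**Figure D1:**
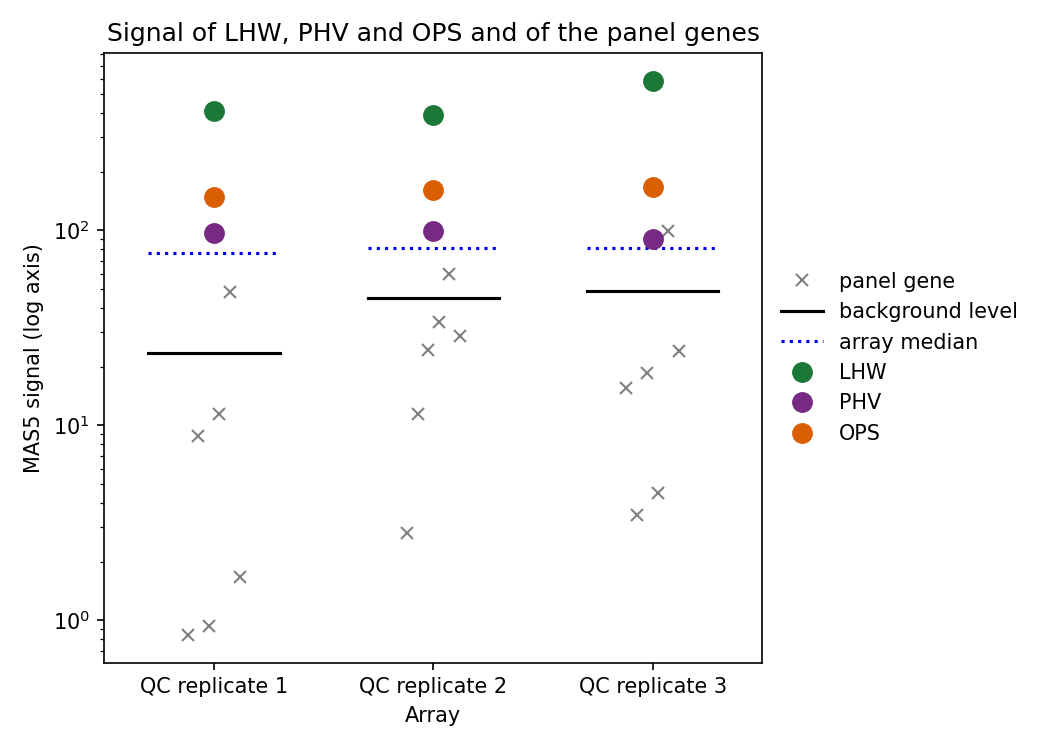
MAS5 signal (log axis) of LHW, OPS and PHV on the 3 QC arrays, with the 6 panel genes of pollen, tapetum and flower (crosses), the background level taken from them (black line) and the median of all probe sets (dotted line). LHW and OPS lay above every panel gene on each array, and PHV did so on replicates 1 and 2 but fell below AMS on replicate 3.

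To see how far these signals stood from what genes of other organs gave, each array was given a background level from a panel of such genes, namely their 90th percentile in log2 signal. Of 36 genes listed for the panel, 6 could be used. These were the pollen genes ANX1, ANX2 and MGH3, the tapetum genes A9 and AMS, and CLV3 of the shoot meristem. The level corresponded to signals of 23.6, 44.9 and 49.0 in replicates 1 to 3. Replicate 1 thus had the lowest background, and each of the 3 genes lay furthest above it there.

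LHW was 17.5, 8.71 and 12.0 times as bright as the background level in replicates 1 to 3, a mean of 3.61 ± 0.50 log2 (SD, n = 3). OPS was 6.26, 3.61 and 3.43 times as bright, a mean of 2.09 ± 0.48. PHV was 4.14, 2.20 and 1.85 times as bright, a mean of 1.36 ± 0.61. These SDs are wider than those of the genes' own log2 signals, which were 0.32 for LHW, 0.10 for OPS and 0.07 for PHV, since the background level itself moved between arrays (SD 0.58 log2).

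PHV was the member nearest to the panel. Its signal exceeded all 6 panel genes in replicates 1 and 2, whereas in replicate 3 the tapetum gene AMS gave 99.4 against 90.5 for PHV. AMS was the brightest panel gene on all arrays, at 48.4 in replicate 1 and 59.7 in replicate 2. LHW and OPS exceeded all 6 panel genes on all 3 arrays. All 3 genes also exceeded each of the 27 probe sets for bacterial transcripts not added to the hybridisation, the brightest of which gave 20.4, 31.0 and 27.8. With AMS left out of the panel, an alternative chosen after the values were seen, the means over background became 4.56 for LHW, 3.04 for OPS and 2.31 for PHV.

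Of the 13350 genes tested across the arrays, 45.3% were called above the background level and 25.6% below it (limma, Benjamini-Hochberg adjusted p under 0.05). All 3 genes fell among those above, which is how they came to be chosen, so nothing is read from that count. The mean of LHW over background exceeded that of 86.4% of genes, that of OPS 68.6% and that of PHV 58.9%. The median over all genes tested was 0.62 log2.

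**Figure D2:**
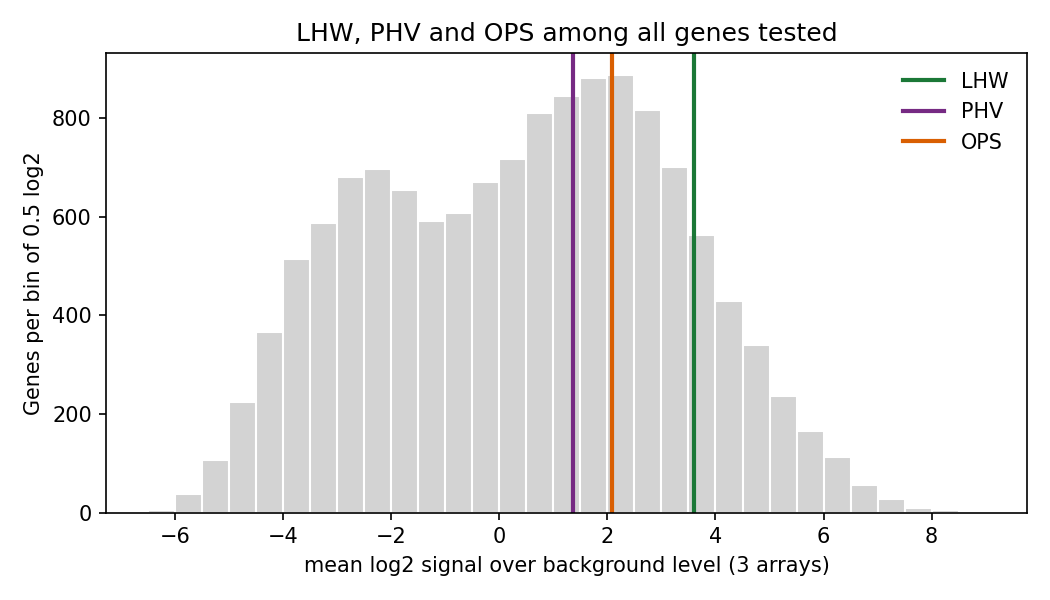
Number of genes per bin of 0.5 log2 in mean signal over the background level, over 3 arrays and 13350 genes tested, with vertical lines at PHV (1.36), OPS (2.09) and LHW (3.61). PHV and OPS lie within the upper hump of the distribution and LHW lies on its upper slope.

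The spread between arrays was then compared with that of genes of similar brightness, as a measure that owes nothing to the background level. Genes were ranked by mean log2 signal and divided into 5 groups of equal size. LHW, in the brightest group, had a range of 0.58 log2 from its lowest to its highest array. The median gene of that group had 0.36 log2, and LHW had a wider range than 81.0% of its 2671 genes. The width rested on replicate 3, since replicates 1 and 2 alone differed by only 0.075 log2.

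OPS and PHV were steadier than most genes of their brightness. OPS, in the next group down, had a range of 0.18 log2, wider than that of only 9.25% of 2671 genes (median 0.50). PHV, in the middle group, had a range of 0.13 log2, wider than that of 2.17% of 2671 genes (median 0.75). The same held when arrays were first centred on their median, where the ranges were 0.10 log2 for OPS and 0.19 for PHV, wider than those of 2.58% and 4.94% of their groups, and with quantile normalisation (0.13 and 0.18, wider than 4.68% and 4.72%). Without replicate 3 the range of PHV was 0.021 log2, and without replicate 1 that of OPS was 0.051. PHV lies near the top of its group in brightness and LHW toward the bottom of its own, and ranges narrow with brightness. Among the 500 genes nearest in mean log2 signal, a comparison added after the values were seen, LHW had a wider range than 76.8% (median 0.41), OPS than 8.6% (median 0.52) and PHV than 3.4% (median 0.60). These percentiles describe 3 arrays and were not tested.

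**Figure D3:**
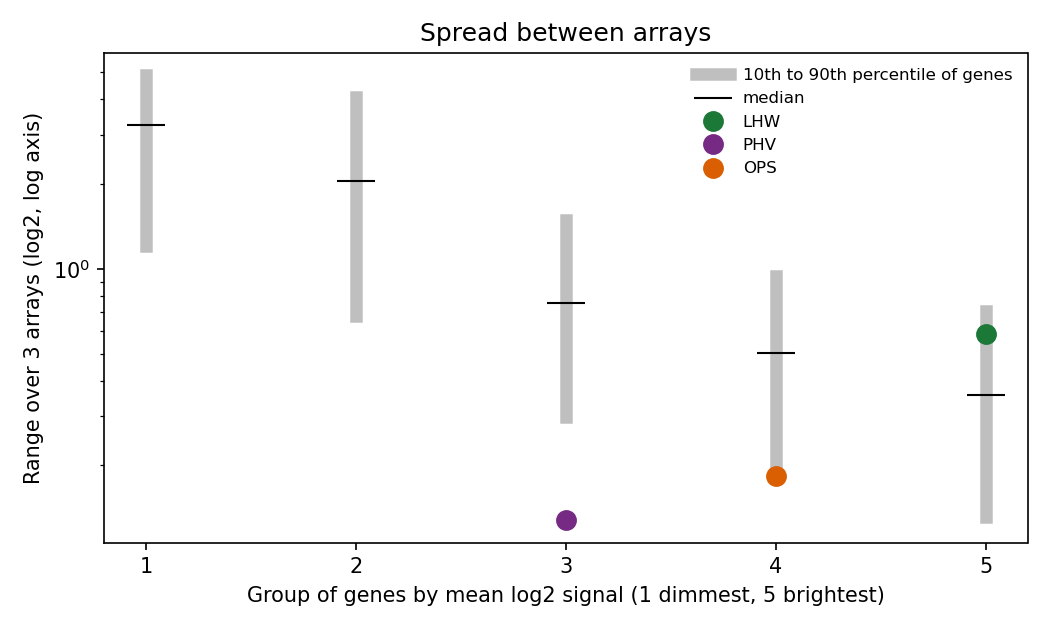
Range of log2 signal over the 3 arrays (log axis) in 5 groups of genes by mean signal, with the 10th to 90th percentile (grey bar) and the median (black dash) of each group. LHW (0.58) lies above the median of its group, while OPS (0.18) and PHV (0.13) lie below the 10th percentile of theirs.

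The 3 genes did not follow the same course over the arrays. LHW was highest in replicate 3 and lowest in replicate 2. OPS was also highest in replicate 3 but lowest in replicate 1. PHV was lowest in replicate 3, where both others were highest. The 18 spike-in control probe sets were all brightest in replicate 2, by a median of 2.13-fold over the mean of the other arrays. On that array LHW was at its lowest and the signal of PHV at its highest, though only narrowly (98.9 against 97.5 in replicate 1). Relative to the array median, PHV was highest in replicate 1 instead (1.27 times, against 1.21 in replicate 2). The part of the array in these values was not tested.

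Among genes called above background, those whose course over the arrays was nearest to each member were listed, the distance being the root mean square difference of the deviations from each gene's own mean over 3 arrays. For LHW these were AT1G12320 (0.0049 log2), AT5G27650 (0.010) and AT1G05910 (0.011). For PHV they were AT5G58100 (0.0014), AT2G31010 (0.0029) and UGT73B5 (0.0037), and for OPS AT2G29995 (0.0025), AT2G17350 (0.0036) and IMP4 (0.0043). Within a wider limit of 0.05 log2 lay 69 of 6050 genes for LHW (1.14%), 312 for PHV (5.16%) and 260 for OPS (4.30%). With 3 points per gene, the nearest genes are a description of these arrays only.

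Lists of genes drawn up around each member from general knowledge of the pathways were examined next. Few listed genes could be measured, because most of the listed genes had no probe set naming them alone: 3 of 27 around LHW, 2 of 24 around PHV and 6 of 38 around OPS. TMO5, the partner of LHW, PHB, REV, CNA and ATHB8, the other class III factors beside PHV, and BRX and CVP2, which act in the protophloem with OPS, were not analysed here.

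Around LHW, 0 of the 3 measured loci were called above background and 0 below (limma), and 0 also had an unadjusted p under 0.05. Over all genes tested, 45.3% were called above and 25.6% below, and 3 loci are too few to set against those shares. The annotation used here gives these loci no name, so their place in the pathway rests on the list alone. They are AT5G50010 with 0.88 ± 0.28 log2 over the level (SD, n = 3; adjusted p = 0.0981 by limma), AT2G28510 at 0.53 ± 0.11 (limma adjusted p = 0.367) and AT5G09460 at 0.20 ± 0.20 (limma adjusted p = 0.768). Their median of 0.53 was close to the 0.62 of all genes tested. All 3 signals were lowest in replicate 1, at 52.4 for AT5G50010, 32.3 for AT2G28510 and 29.8 for AT5G09460, against 43.9 to 83.3 on the other arrays. The call was sensitive to the panel, as 2 of 3 loci were above when AMS was left out of it.

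Around PHV, 1 of 2 measured genes was called above and 0 below, beside 45.3% and 25.6% of all genes tested. With 2 genes, nothing is read from that count. SE (SERRATE), a zinc finger protein needed to process microRNA precursors, gave signals of 308, 312 and 309 in replicates 1 to 3. These were nearly the same on all arrays, at 3.05 ± 0.57 log2 over background (limma adjusted p = 6.73e-15). SQN (SQUINT), a cyclophilin that promotes the activity of the microRNA effector AGO1, was not called at -1.53 ± 1.10 (limma adjusted p = 0.0895). That value is the mean of 2 probe sets that disagreed, lying at 1.67 and -4.73 log2 over background, so the level of SQN is uncertain.

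Around OPS, 2 of 6 measured genes were called above and 1 below, near the 45.3% above and 25.6% below among all genes, with a median of 0.35 against 0.62 for all genes tested. AT5G58930, AT2G44830 and AT5G02460 likewise have no name in the annotation, and their place in the pathway rests on the list alone. AT5G58930 gave the brightest signals of any listed gene, 2372, 2016 and 2370 in replicates 1 to 3, or 5.91 ± 0.64 log2 over background (limma adjusted p = 4.53e-28). ATBRXL2, a relative of the protophloem regulator BRX, gave 234, 378 and 335, or 3.05 ± 0.27 (limma adjusted p = 6.68e-15). It was lowest in replicate 1, as was OPS.

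CLE26, which encodes a small secreted peptide that inhibits protophloem formation when applied to roots, was called below at -2.16 ± 1.33 log2 (limma adjusted p = 0.0284). Its signals were 1.82, 17.5 and 18.3, and the call ended when any replicate was left out, and at the 75th percentile of the panel, with AMS left out of it or with bacterial controls as background. A gene below the level is not shown to be absent. BRL1, a brassinosteroid receptor of vascular tissue, was not called at 0.16 ± 0.50 (limma adjusted p = 0.817). Neither AT2G44830 (0.55 ± 0.62) nor AT5G02460 (-1.64 ± 1.34) was called (limma adjusted p = 0.352 and 0.0732), though AT2G44830 was above with AMS left out of the panel (limma adjusted p = 0.0456).

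**Figure D4:**
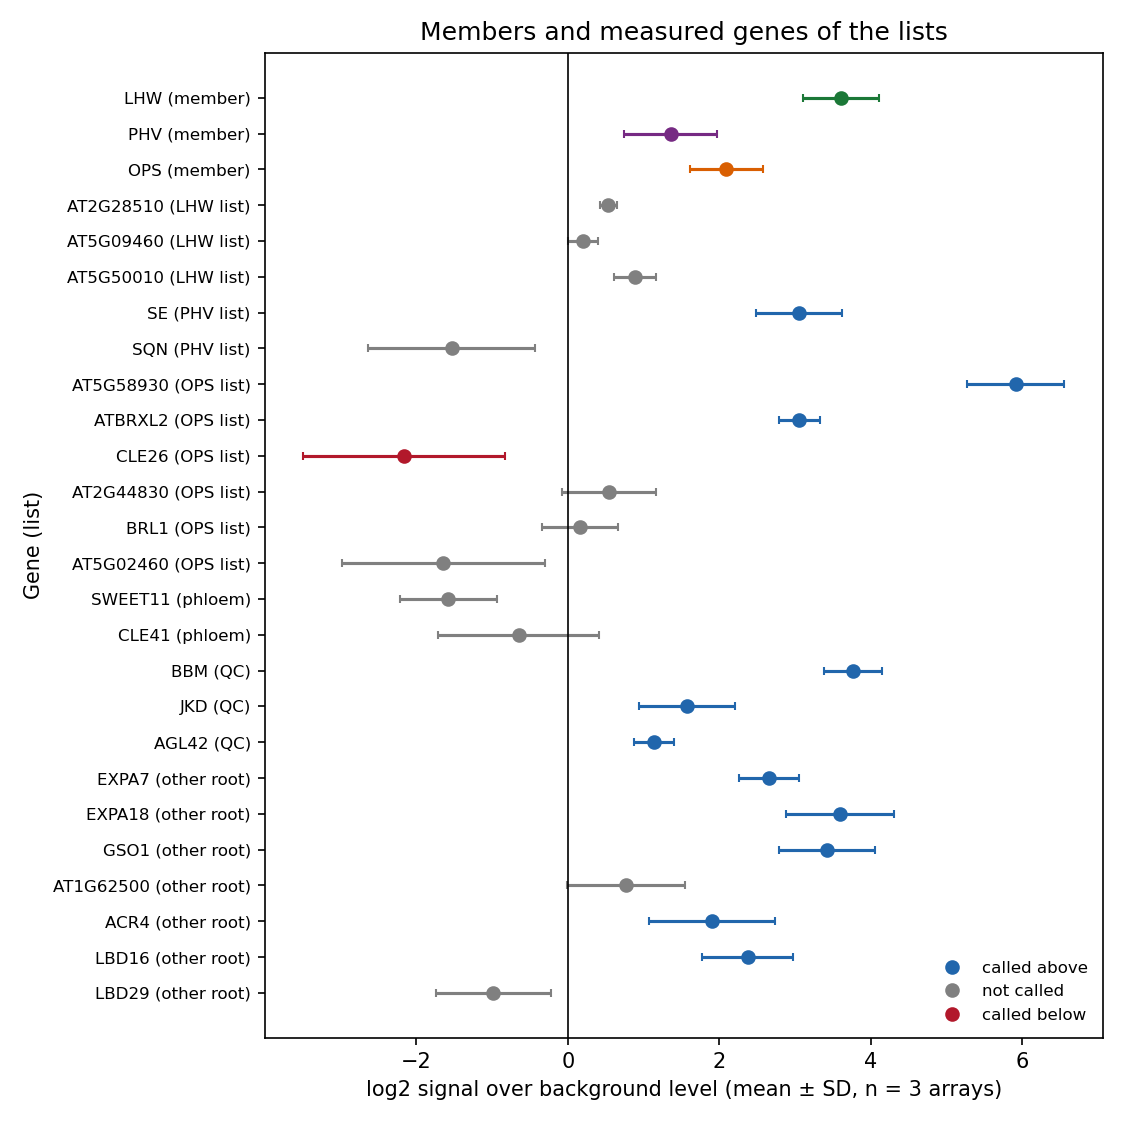
Mean log2 signal over the background level with SD over 3 arrays, for LHW, PHV and OPS and for each measured gene of the pathway and marker lists. The 3 measured loci of the LHW list lie between 0.20 and 0.88, and both measured phloem markers lie below 0.

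Since GFP-positive gates can hold other cells, markers of vascular and other root tissues were read on the same arrays. None of the 20 listed xylem markers was measured (0 of 20). For all genes tested, the shares called were 45.3% above and 25.6% below. Of 12 phloem markers 2 were measured, and 0 were called above or below (limma, 0 above also at an unadjusted p under 0.05). These were the sugar transporter gene SWEET11 at -1.58 ± 0.64 log2 over background (limma adjusted p = 0.082) and CLE41, which encodes a phloem-derived signal to the procambium, at -0.65 ± 1.07 (limma adjusted p = 0.404). Their summed signal was 40.7, 49.5 and 24.1 in replicates 1 to 3. SWEET11 lay over the background level on 0 arrays and CLE41 on 1, so no course over the arrays is read from that sum. The differentiated phloem genes SUC2 and SEOR1 were not analysed here.

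All 3 measured QC markers of 14 listed were called above background, beside 45.3% of all genes tested. BBM, a PLETHORA-family factor, lay at 3.77 ± 0.38, JKD, a zinc finger factor of tissue patterning, at 1.57 ± 0.64, and AGL42, a MADS-box gene, at 1.14 ± 0.27 (limma adjusted p = 3.0e-21, 0.000667 and 0.0239). The call of AGL42 ended without replicate 2, without replicate 3, at the 95th percentile of the panel and without a variance trend. The summed signal of these markers was 609, 691 and 824 in replicates 1 to 3, most of it from BBM (434.5, 506.5 and 595.0). The markers shared no course, since in replicate 2 JKD was at its lowest (88.1) and AGL42 at its highest (96.7). Among 7 measured of 19 markers for other root cells, 5 were called above, beside the same 45.3% of all genes. With so few genes, nothing is read from the count of either list. The 5 were EXPA7 and EXPA18 of root hairs, GSO1 of the endodermis, ACR4 of the root cap and epidermis, and LBD16 of lateral root founders. LBD29, another gene of lateral root founders, lay below the level on all 3 arrays and was not called (-0.98 ± 0.76, limma adjusted p = 0.233), nor was AT1G62500 (0.77 ± 0.78, limma adjusted p = 0.162). This list summed to 1538, 1543 and 1465, with no course shared by its genes. EXPA18, ACR4 and LBD16 were lowest in replicate 3, EXPA7 and AT1G62500 were highest there, and GSO1 and LBD29 were neither. No marker of either list was at 0, but a signal over 0 does not by itself show that a transcript was present. The part of other cells in the signals of LHW, PHV and OPS was not tested.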

How the data were processed

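GFP-positive protoplasts were profiled on 3 ATH1 arrays. Per the labels, the deposited intensity values are MAS5 signals, which the authors made from each array alone. The version and settings of MAS5 were not given in the sources used here. The trimmed mean (2% left out at each end) was 250 on every array, and 0 values of a probe set were exactly equal between any pair of arrays. The number of arrays limits the precision.

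Signals were taken to log2 with no offset. Platform annotation, updated through RefSeq (TAIR10.1, names only), gave 13513 probe sets 1 gene each, 503 several and 8730 none, and 64 were controls. Of the first, 13436 matched RefSeq. Probe sets of a gene were averaged. RefSeq lists 0 genes overlapping LHW, PHV or OPS. An intercept was fitted to log2 signal minus the background level across all genes but the panel (limma 3.58.1, R 4.3.3, two-sided eBayes with a variance trend). Its prior degrees of freedom were infinite, so the trend alone set each gene's spread, and p-values leave out any error of the level that the arrays share. The fit was also run on simulated data with independent noise for each gene, so that run cannot speak to such a shared error.

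The members, the gene lists and the tests were chosen with earlier results of these data known. Named genes were the members, the measured genes of the lists and the 3 nearest profiles for each member. Alternatives were other panel percentiles (75, 95), bacterial control probe sets as background, quantile normalisation, median centring, an offset of 16, leaving out _s_at and _x_at probe sets, no variance trend, testing only the 8900 brightest genes, and leaving out each replicate. Leaving AMS out of the panel was added after the data were seen.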

Additional observations from a re-analysis of the deposited data

How the results depend on the processing

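The mean signals of LHW, PHV and OPS stayed over the background level under every alternative run. That of PHV came as low as 0.947 log2 over it, at the 95th percentile of the panel. This holds for the means only, and it is not given whether LHW, PHV and OPS would still be called above in each setting. Their means over background moved by more than the spread between arrays in these settings: at the panel's 75th percentile LHW lay at 4.51, PHV at 2.26 and OPS at 3.00 log2, without AMS (an alternative chosen after the data were seen) at 4.56, 2.31 and 3.04, and with bacterial controls as background at 6.50, 4.25 and 4.98. An offset of 16 gave 3.07 for LHW. Leaving out 1 replicate gave ranges between arrays of 0.075 to 0.585 log2 for LHW, 0.0207 to 0.128 for PHV and 0.0514 to 0.184 for OPS.

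Genes called above numbered 6051, and 9242 with bacterial controls. Genes called below numbered 3414. They fell to 1636 using the 75th percentile, 1560 if AMS was left out, 108 with bacterial controls and 0 among the 8900 brightest genes, and ranged from 2226 to 2623 when a replicate was dropped. Calls above made up 63.9% of all calls, and 80.6%, 81.5%, 98.8% and 100% in those 4 settings in the same order (69.2% to 71.4% with a replicate dropped). The setting with the 8900 brightest genes leaves out the dimmest genes before testing. The genes called below lie among those left out, so its 0 and 100% come from the filter. Genes called below rose instead to 4159 at the 95th percentile, 4193 with the offset of 16 and 3970 without a variance trend. Calls above then made up 57.2%, 59.7% and 58.6% of all calls. Of the LHW list, 1 of 3 was above at the 75th percentile, 2 without AMS and 3 with bacterial controls. Of the OPS list, 3 of 6 were above without AMS and 4 with bacterial controls. SQN was called below at the 95th percentile and without a variance trend, as were AT5G02460 and SWEET11, the latter pair also with the offset of 16. The list around PHV had 1 above in every setting. Apart from that filter, the cause of these shifts beyond the level chosen was not tested. The distance of all genes from background rests on few panel genes, since the level lies midway in log2 between AMS and the next brightest (A9 or CLV3), and most pathway genes were not measured.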
